A study of Mus musculus with 92 samples.

Results

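The genes described here code for the translation factors of the cytoplasmic ribosome. They were taken from the counts by symbol: every row named Eif2 to Eif6, Eef1 or Eef2, Pabpc with a number, Etf1 or Gspt1, without the sex-linked pair Eif2s3x and Eif2s3y. This gave 55 of the 7886 genes in the table. The gene annotation holds 80 symbols of this form, and 25 of them, 15 of which are protein coding, are not analysed here. They include Eif4e1b, Eif4e3, Pabpc1l, Eif5a2, Eef1a2, Eef2k, Eif2ak2 and Eif2ak4.

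Translation begins when eIF2 carries the initiator tRNA to the small ribosomal subunit and the scaffold eIF3 joins it. The cap-binding factor eIF4E, the scaffold eIF4G and the helicase eIF4A load this complex on the mRNA, and poly(A)-binding protein on the tail binds eIF4G. After scanning, eIF5 and eIF5B let the large subunit join, eEF1A and eEF2 then drive elongation, and eRF1 (Etf1) with eRF3a (Gspt1) ends it. In the early mouse embryo stored maternal mRNA is translated before and while the embryo's own genome takes over.

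Single blastomeres were profiled by Smart-seq2, which copies full-length mRNA from a single cell without molecular identifiers. All came from wild-type C57BL/6N embryos that were injected as zygotes and taken apart at the 8-cell stage. Each zygote received let-7d or let-7e, which the design text calls mimics, or mi699a-5p, or else a negative control. The labels for these are Let7d, Let7e, mi699a-5p and NC. All groups therefore share the injection and culture, and no uninjected embryo was compared. The 14 mouse ids were divided as 3 for NC (22 cells), 3 for Let7d (18 cells), 4 for Let7e (20 cells) and 4 for mi699a-5p (21 cells). What a mouse id stands for is not stated, so p-values measure the spread between these ids. The groups use separate mouse ids, and any handling difference between groups and the microRNA itself cannot be told apart. Of 92 labelled cells 82 had a column, and a pair of Let7d columns that differed by about the sampling noise (chi-square per gene 1.05, against 28.7 for the next closest pair) was counted as 1 cell. Cells held 1575609 to 4950404 reads, and sums over a mouse id held 6329464 to 24037593. Of 15 preimplantation embryo markers 14 were in the table, and none of the cumulus, sperm, blood or skin markers was. The table is labelled as taken after a CPM filter, so an absent marker may have been present at a low level.

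Levels are given as CPM, the counts of a gene scaled to a fixed library total. Because CPM is a share of reads, a blastomere with less of an mRNA and a blastomere with more of all the others cannot be told apart. A set of 7 cells, picked by ribosomal protein share after the data were seen, stood apart from the rest. Their reads on ribosomal protein genes made up 7.1% to 14.5% of all reads, against a median of 4.31% over all 81 cells and a highest value of 6.95% in the other 74. They were 1 cell of NC mouse id 2, 1 of NC mouse id 3, 2 of Let7e mouse id 1, 2 of mi699a-5p mouse id 1 and 1 of mi699a-5p mouse id 2. The main results are given with and without these 7 cells where they differ. Reads on ribosomal RNA genes made up 9.24% to 15.89% per mouse id in NC and 3.68% to 8.79% in Let7d, which did not overlap, 6.0% to 13.98% in Let7e and 8.03% to 12.58% in mi699a-5p. The part of this difference in the Let7d results was not tested.

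Translation factor genes were among the more abundant mRNAs of the blastomere. Their median was 329 CPM against 40.9 CPM over all genes, and 32 of 55 (58.2%) ranked among the 788 genes with the highest CPM. Per kilobase (kb) of exon, the scale on which genes can be compared with each other, their median was 87.3 against 9.96 for all genes with a length. Between mouse ids they were also steadier: the highest of the 14 values exceeded the lowest by a median factor of 1.96 (54 members without a value of 0), against 3.71 over all genes. Abundant genes have less counting noise, so this factor is a description of level as well as of steadiness. Together they took 2.83% ± 0.0691 of NC reads (SD, n = 3) and 3.01% ± 0.414 of Let7d reads (n = 3). The share was 3.02% ± 0.39 for Let7e (n = 4) and 2.76% ± 0.133 for mi699a-5p (n = 4). The ranges of the groups overlapped, from 2.47% to 3.38% in Let7e and from 2.78% to 2.91% in NC. With ribosomal RNA and mitochondrial rows taken out of the totals, the mean of Let7d was 3.28% and that of NC 3.41%, so their order turned.

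**Figure D1:**
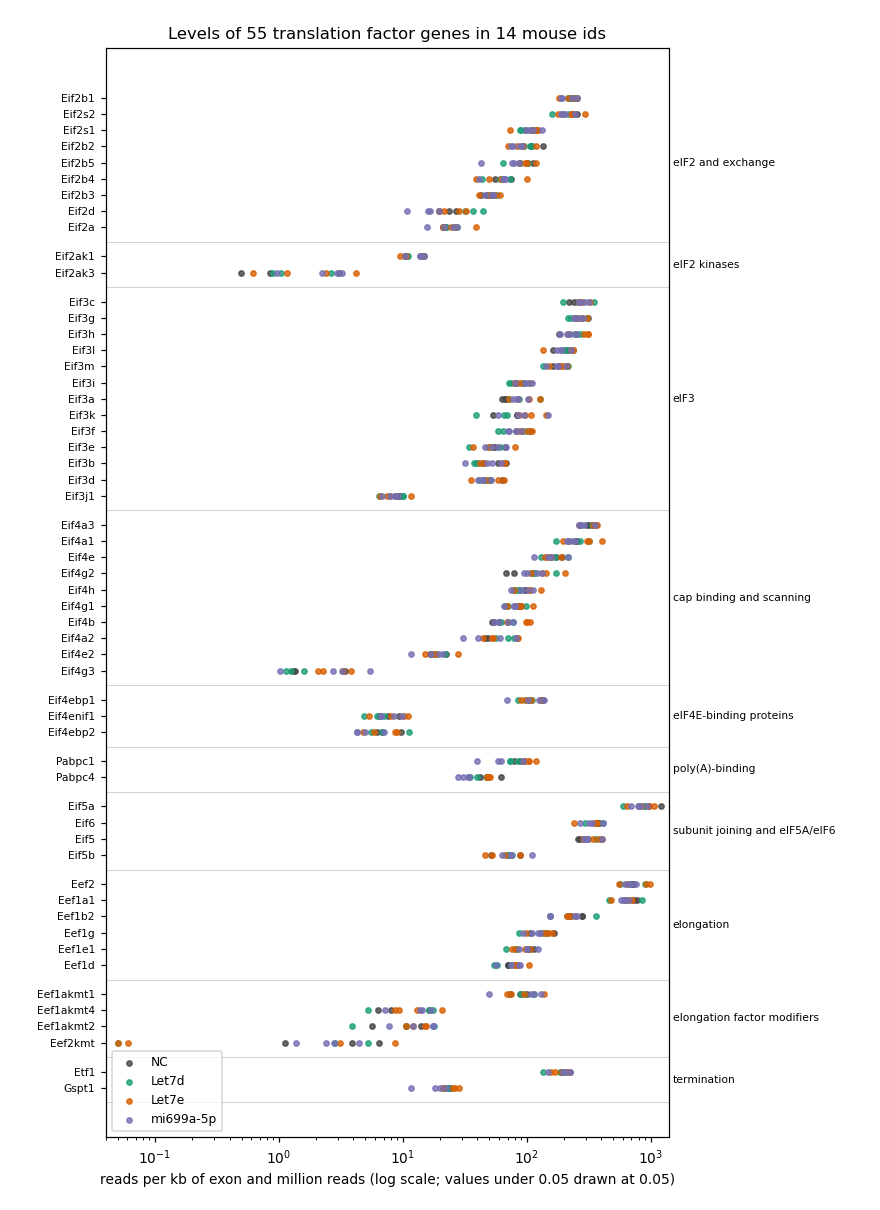
Level of each of the 55 translation factor genes per kb of exon, in CPM per kb, (horizontal axis, log scale), with a point for each of the 14 mouse ids coloured by injected material. Genes are grouped by role. Eif5a, Eef2 and Eef1a1 lie furthest right and Eif2ak3, Eif4g3 and Eef2kmt furthest left, and the colours overlap in most rows.

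Levels in this paragraph and the 2 that follow are means over the 14 mouse ids per kb of exon, in CPM per kb,. Among elongation genes, Eef2, the translocase of the elongation cycle, stood at 725 and Eef1a1, which brings aminoacyl-tRNA to the ribosome, at 647. The exchange factor subunits that recharge eEF1A were lower: Eef1b2 at 229, Eef1g at 127 and Eef1d at 76.2. Eef1e1, a scaffold protein of the tRNA synthetase complex that shares the family name, stood at 94.6. The highest of all was Eif5a at 866, whose protein helps the ribosome through difficult peptide bonds and carries the hypusine modification. Eif6, which keeps the large subunit from joining too early, stood at 346 and Eif5, the GTPase activator of eIF2, at 329, while Eif5b, the subunit-joining GTPase, stood at 71.8. The lysine methyltransferases of the elongation factors ran from 95.8 for Eef1akmt1 through 12.4 for Eef1akmt4 and 12.2 for Eef1akmt2 down to 3.02 for Eef2kmt, which alone lay below the median of all genes.

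The initiation scaffold eIF3 is built of subunits in near-equal numbers, yet the mRNA levels of its 13 measured subunits spanned 31.8-fold. Eif3c, part of the core, stood at 272, with Eif3g at 265, Eif3h at 244, Eif3l at 204 and Eif3m at 184. Eif3a, the largest core subunit, stood at 87.3 and Eif3b at 50.1. Eif3j1, the loosely bound subunit, was lowest at 8.56, and reads of its near-identical copy Eif3j2 may have been split from it. The next lowest was Eif3d at 48.8, so much of the 31.8-fold span rested on Eif3j1. Of the exons of Eif3d 43.3% overlap another annotated gene, and of Eif3j1 20.2%. The protocol does not mark the strand, so such reads cannot be told apart.

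Paralogs were very unequal. Of the helicase genes, Eif4a3 stood at 317 and Eif4a1 at 258 and Eif4a2 at 59.7; the Eif4a3 protein serves the exon junction complex rather than scanning. Of the scaffolds, Eif4g2, which lacks the part that binds eIF4E, stood at 121, Eif4g1 at 82.9 and Eif4g3 at 2.43. The cap-binding gene Eif4e stood at 164 and Eif4e2, a relative linked to repression, at 18.8. Among the proteins that hold eIF4E back, Eif4ebp1 stood at 109, Eif4enif1 at 7.72 and Eif4ebp2 at 6.78. For eIF2, the subunit genes Eif2s2 and Eif2s1 stood at 219 and 107, and the subunits of the exchange factor eIF2B ran from 226 for Eif2b1 through 97.4 for Eif2b2, 88.6 for Eif2b5 and 61.5 for Eif2b4 to 51.4 for Eif2b3. Eif2d and Eif2a, which share the name but are no subunits of eIF2, stood at 24.8 and 24.4. The eIF2 kinases were scarce, Eif2ak1 at 12.4 and the endoplasmic reticulum kinase Eif2ak3 at 1.91. Pabpc1 stood at 83.4 and Pabpc4 at 42.5. The release factor Etf1 stood at 188 and its partner Gspt1 at 22.2. With the longest coding transcript as the length in place of all exons, the median of the members was 128, and the order of genes with long alternative exons shifted. Within eIF3, Eif3g was then highest at 477, followed by Eif3l at 383 and Eif3m at 371, Eif3c stood at 282, and Eif3k at 258 in place of 86.8. Eif3j1 was lowest by either length, at 9.22 by transcript. Other orders turned by transcript length: Eif4a1, at 631, lay above Eif4a3, at 445, and Eef1a1, at 899, above Eef2, at 780. Eif2b3, at 89.2, lay above Eif2b4, at 79.0.

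Messenger RNAs of the translation machinery often begin with a run of C and T. RefSeq windows were at hand for 43 members (build GRCm38.p6), and 14 of them (32.6%) had a run of at least 8 C or T bases between 20 bases before and 50 bases after the start, where 26.0% of genes in the table and 28.5% of all promoters had such a run. By this count, which takes a run anywhere in the window, the members were close to the background share. Whether an mRNA itself begins with a run was not tested, and members without a window, Pabpc1, Eef1d and Eef1g among them, were not searched. A set of 3 members described below is shown, with the longest run in capitals; only the strand of the gene was searched.
Eef2: gacgtcagcggTCTCTTCCgccgcagccgc
Eif3a: atcacgtggTTCCTTCCTTTCCgtctctgg
Eif3k: ctgaaagcgCCTTTCCCTTTgccttccttg
The stretches lie at chr10:81176634-81176663 (plus strand), chr19:60790644-60790673 (minus) and chr7:28981855-28981884 (minus), and the runs begin 14, 29 and 13 bases from the RefSeq start. For Eif3a and Eif3k this start lies upstream of the GENCODE gene start, as do the first bases of the Eif3a run and the whole Eif3k run.

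Whether these mRNAs could pair with the injected let-7 was read from the annotation. A microRNA finds its targets mainly through its seed, bases 2 to 8. The mature sequences are shown because both injected let-7 molecules carry the same seed, in capitals.
mmu-let-7d-5p: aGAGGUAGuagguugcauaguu
mmu-let-7e-5p: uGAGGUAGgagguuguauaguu
They differ at 3 of 22 bases, none of them in the seed. Their genes lie at chr13:48536078-48536099 on the minus strand and chr17:17830366-17830387 on the plus strand. Matches were CTACCTC, opposite bases 2 to 8, or TACCTCA, opposite bases 2 to 7 with an A opposite base 1. The 2 overlap in the full match CTACCTCA, and only the mRNA strand was searched. No sequence for mi699a-5p was used here.

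Translation factor mRNAs held few let-7 seed matches. Only a single transcript per gene was searched, that with the longest coding sequence. In 53 members this transcript had an annotated 3′ untranslated region, and 3 (5.66%) had a match, against 15.3% of 7504 genes of the table. The members' untranslated regions were shorter: those without a match had a median of 482 bases, against 793 bases for other genes without a match. The 3 matches are shown with the matching bases in capitals, on the strand of the mRNA (GRCm38).
Eif4g2: tgcctgtatttCTACCTCtagtaatgggct
Eif4e2: ttggtgggggtTACCTCAcccagcttgaaa
Eif5b: cactttgcaaaTACCTCAcaagcactgctg
They lie at chr7:111072196-111072225 (minus strand), chr1:87234109-87234138 (plus) and chr1:38053020-38053049 (plus), each in a 3′ untranslated region. In the Let7d comparison 0 of these 3 genes lay below NC, and in the Let7e comparison 1 of 3 did. The median log2 fold change of the other genes with a match was 0.06 in Let7d and 0.02 in Let7e, and without a match 0.00 and 0.02. Neither let-7 group had a lower median for genes with a match than for genes without, and protein was not measured.

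The effect of each injected microRNA on the translation factors was tested with edgeR's quasi-likelihood F test over all 7886 genes, adjusted by Benjamini-Hochberg at 0.05. No member passed in any of the 4 comparisons. The shares of all genes that passed were 0.0127% (1 gene) for Let7d against NC, and 0% for Let7e against NC, for mi699a-5p against NC and for Let7e against Let7d. At an unadjusted p under 0.05, 4 of 55 members (7.27%) stood out for Let7d against a background of 4.69% of all genes, 3 (5.45%) for Let7e against 4.02%, 3 (5.45%) for mi699a-5p against 5.5% and 4 (7.27%) for Let7e against Let7d against 5.39%. These shares are near the background. DESeq2 also called 0 members in these comparisons, with 5, 3, 5 and 5 at an unadjusted p under 0.05, where 5.62%, 4.85%, 6.75% and 6.4% of all genes were. By limma on the mean log2 CPM of cells 0 members were called, with 3, 3, 4 and 3 under an unadjusted 0.05, where 5.76%, 4.15%, 5.05% and 6.01% of all genes were.

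How large a difference could have been missed follows from the errors. The median standard error of a member's log2 fold change was 0.22 to 0.24. For 44 of 55 members in Let7d, 46 in Let7e, 45 in mi699a-5p and 46 in Let7e against Let7d, the 95% interval (10 degrees of freedom) lay wholly within a 2-fold change. For these genes a doubling or a halving lay outside the interval. Eif3k, Eif4g3 and the scarce genes Eif2ak3, Eef2kmt, Eef1akmt2 and Eef1akmt4 had intervals that reached past it in every comparison, and standard errors up to 1.59.

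**Figure D2:**
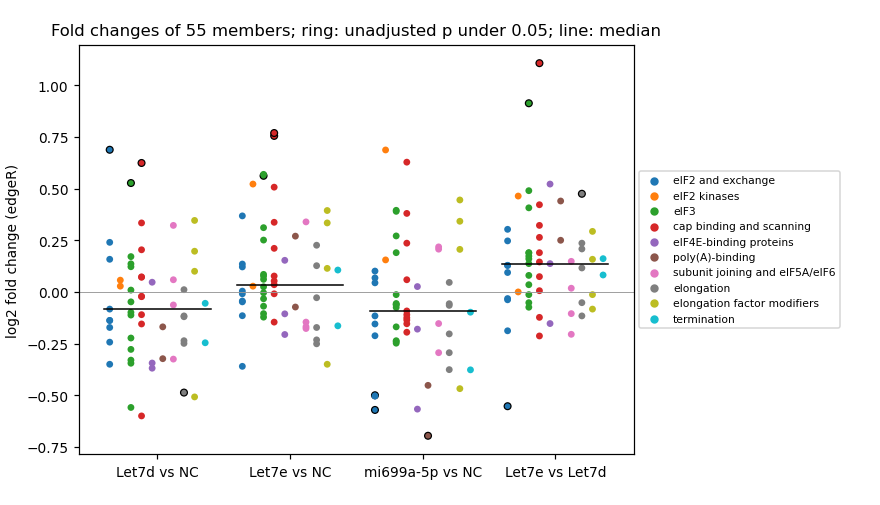
Log2 fold change of each of the 55 translation factor genes (vertical axis) in the 4 comparisons, coloured by role, with rings on genes at an unadjusted edgeR p under 0.05 and a line at the median. The medians are -0.08, 0.04, -0.09 and 0.14, and most genes lie within 0.5 of 0.

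In Let7d the members' median log2 fold change against NC was -0.08, against 0.01 over all genes, with 22 above 0 and 33 below. This direction was not stable: limma on the mean log2 CPM of cells gave a median of 0.04 with 31 above 0, against 0.11 over all genes, and leaving out Let7d mouse id 2 gave -0.02 with 26 above 0. Eif2d, a factor that can place tRNA on the ribosome without GTP and acts in recycling, was the member with the smallest p. It measured 233.8, 326.0 and 271.0 CPM in the 3 Let7d mouse ids and 198.2, 143.2 and 174.4 in NC, so every Let7d value lay above every NC value. Its log2 fold change was 0.69 ± 0.27 (SE; edgeR p = 0.0186, adjusted p = 0.986). Eif4g2, the scaffold used in cap-independent initiation, measured 1109, 1187 and 1752 CPM against 798.5, 687.4 and 1141 in NC, and the groups overlapped (0.62 ± 0.26, edgeR p = 0.0267, adjusted p = 0.986). Its log2 fold change was 0.40 without Let7d mouse id 3. Eif3a measured 1116, 623.4 and 757.8 CPM against 546.3, 588.1 and 598.5 in NC. These groups did not overlap, with a log2 fold change of 0.53 ± 0.24, and 0.26 without Let7d mouse id 1 (edgeR adjusted p = 1 with it). Eef1e1 was the lower one: 269.4, 260.5 and 219.7 CPM against 344.9, 331.0 and 374.6 in NC, without overlap (-0.49 ± 0.21, edgeR p = 0.0298, adjusted p = 0.986). Without the 7 cells that stood apart, Eif2d and Eef1e1 remained under an unadjusted p of 0.05, while Eif3a had a log2 fold change of 0.47 (edgeR p = 0.0504) and Eif4g2 of 0.50 (edgeR p = 0.0708), close to their values with all cells.

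Over all members, every Let7d mouse id was above every NC mouse id for 3 (Eif2d, Eif3a, Eif4b), where 6.0% of all genes were, and below for 3 (Eef1e1, Eif2s2, Eif3b), where 5.96% were. Eif3b, a core eIF3 subunit, measured 125.9 to 136.1 CPM in Let7d and 149.2 to 229.5 in NC. Eif2s2, the beta subunit of eIF2, measured 1075 to 1461 CPM in Let7d and 1563 to 1733 in NC. By role, 5 of 6 elongation genes, both poly(A)-binding genes and both termination genes had log2 fold changes below 0, but 1 of these 10, Eef1e1, had an unadjusted p under 0.05.

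In Let7e the members' median was 0.04, against 0.02 over all genes, with 31 above 0. Eif4b, which stimulates the eIF4A helicase, was the member with the smallest p in any pairwise comparison. It measured 309.5, 451.1, 437.2 and 478.5 CPM in Let7e and 269.3, 232.9 and 242.6 in NC, without overlap. Its log2 fold change was 0.76 ± 0.21 (edgeR p = 0.00176, adjusted p = 0.999), rank 7 of the 7886 genes. Over the alternatives tried, this adjusted p ran from 0.233 to 1. Eif4g2 measured 1099, 2065, 1467 and 1338 CPM in Let7e. The lowest of these lay below the highest NC value of 1141, and the log2 fold change was 0.77 ± 0.25 (edgeR p = 0.00573, adjusted p = 0.999). Eif3a measured 632.9, 916.9, 1116 and 745.8 CPM, all above NC (0.56 ± 0.23, edgeR p = 0.0226, adjusted p = 0.999). With the 7 cells left out the 3 genes differed by 0.74, 0.71 and 0.53.

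Every Let7e mouse id was above every NC mouse id for 4 members (Eif3a, Eif3c, Eif3k, Eif4b; 2.78% of all genes) and below for 0 (2.84% of all genes). Of the 10 cap-binding and scanning genes 8 had a log2 fold change above 0, with a median of 0.14. Because Let7d and Let7e were set against the same NC mouse ids, their fold changes share the NC error. Side by side, Eif3a gave 0.53 and 0.56, Eif4g2 0.62 and 0.77, Eif4b 0.33 and 0.76, and Eif2d 0.69 and 0.14 in Let7d and Let7e. In mi699a-5p, set against the same NC mouse ids, Eif3a gave 0.39, Eif4g2 0.38, Eif4b 0.24 and Eif2d -0.57.

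In mi699a-5p the members' median was -0.09, against 0.05 over all genes, with 20 above 0 and 35 below. Leaving out the 7 cells, of which 3 came from this group, the median was -0.03 and 25 were above 0. With Y-linked reads as a covariate the median was -0.02, against 0.01 over all genes, and 25 were above 0. Pabpc4, a poly(A)-binding protein, measured 112.7, 122.2, 137.0 and 135.0 CPM in mi699a-5p and 195.6, 169.2 and 251.0 in NC. All mi699a-5p values lay below all NC values, with a log2 fold change of -0.70 ± 0.20 (edgeR p = 0.0031, adjusted p = 0.836). Over the alternatives this adjusted p ran from 0.189 to 0.999. The other measured poly(A)-binding gene, Pabpc1, measured 613.5, 403.7, 385.8 and 261.8 CPM against 518.9, 616.5 and 573.1 in NC. The first of these values came from the mouse id with 2 of the 7 cells, and it lay among the NC values. With all cells its log2 fold change was -0.45 ± 0.23 (edgeR p = 0.0605, adjusted p = 0.871), and without the 7 cells it was -0.67 ± 0.18 (edgeR p = 0.00176, adjusted p = 0.561). Pabpc4 was -0.70 without them.

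Both other members at an unadjusted p under 0.05 were also lower in mi699a-5p. Eif2b2, a subunit of the eIF2 exchange factor, measured 146.2, 172.9, 167.5 and 140.1 CPM against 205.9, 256.1 and 202.4 in NC, without overlap (-0.50 ± 0.21, edgeR p = 0.0305, adjusted p = 0.866). Without the 7 cells it was -0.42 (edgeR p = 0.0853), and with Y-linked reads as a covariate it was not under 0.05 either. Eif2d measured 116.9, 122.2, 144.2 and 79.69 CPM, and the highest of these was just above the lowest NC value (-0.57 ± 0.25, edgeR p = 0.0325, adjusted p = 0.867). Eif2d was -0.39 without the 7 cells (edgeR p = 0.127), and with Y-linked reads as a covariate it was not under 0.05 either. Eef1b2, at -0.55 (edgeR p = 0.0347), and Eif4ebp1, at -0.50 (edgeR p = 0.0462), came under 0.05 when these cells were left out, with adjusted p of 0.67 and 0.7. Every mi699a-5p mouse id was above every NC mouse id for 2 members (Eif3a, Eif3c; 4.51% of all genes) and below for 4 (Eif2b2, Eif2b5, Eif4g1, Pabpc4; 3.87% of all genes).

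**Figure D3:**
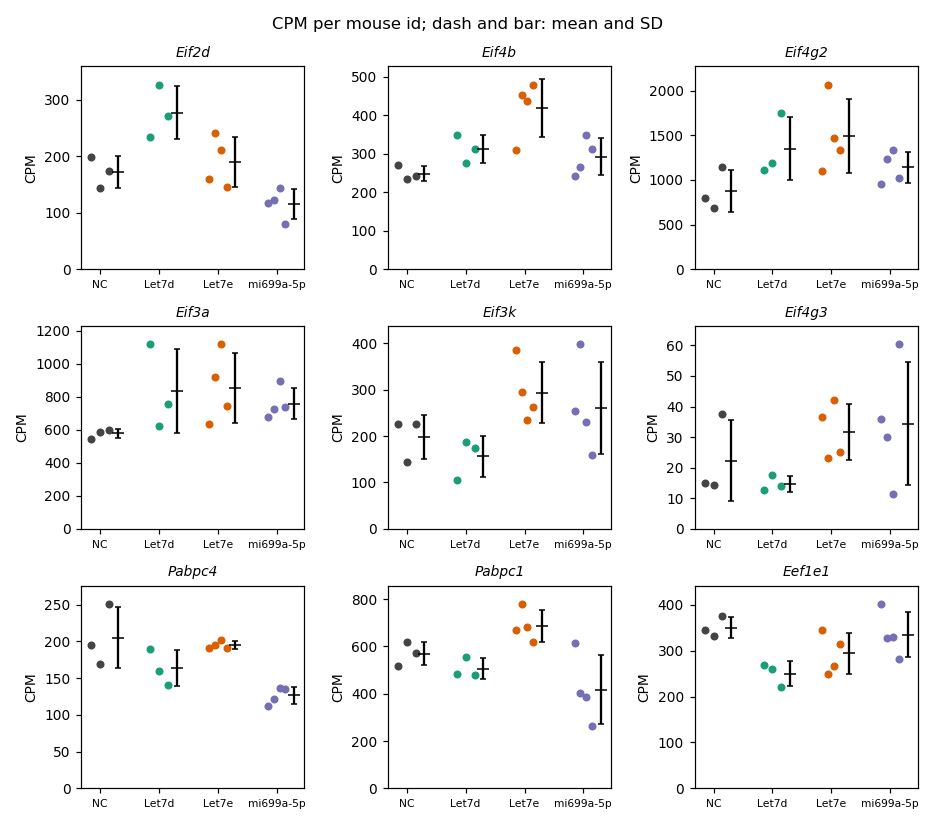
CPM (vertical axis, from 0) of 9 translation factor genes in each mouse id, with a point per mouse id by injected material and the group mean and SD beside it (n = 3, 3, 4 and 4). Eif2d was highest in Let7d and lowest in mi699a-5p, Eif4b highest in Let7e, and Pabpc4 lowest in mi699a-5p.

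Let7e against Let7d compares the 2 let-7 molecules directly. The members' median log2 difference was 0.14, against 0.01 over all genes, and 38 of 55 were higher in Let7e. The median was 0.03 with 31 higher when Let7d mouse id 2 was left out, and 0.05 with 31 higher when Y-linked reads were a covariate. By limma on the mean log2 CPM of cells it was 0.01 with 29 higher, against -0.08 over all genes. Eif3k, the smallest eIF3 subunit, measured 384.3, 293.9, 233.8 and 262.6 CPM in Let7e and 104.7, 188.0 and 175.2 in Let7d, without overlap (0.91 ± 0.30, edgeR p = 0.00763, adjusted p = 0.874). Eef1d, a subunit of the eEF1A exchange factor, measured 521.3, 537.1, 527.6 and 673.9 CPM against 373.8, 351.5 and 494.4, again without overlap (0.48 ± 0.20, edgeR p = 0.0307, adjusted p = 0.924). Eif4g3, the scarcest scaffold, measured 36.46, 23.06, 42.3 and 25.04 CPM against 12.6, 17.57 and 13.93 (1.11 ± 0.52, edgeR p = 0.0483, adjusted p = 0.924). Eif2d was lower in Let7e, at 159.1, 240.2, 210.3 and 145.5 CPM, and 1 of the 4 lay above the lowest Let7d value (-0.55 ± 0.25, edgeR p = 0.0374, adjusted p = 0.924). The highest Eif3k value, 384.3 CPM, came from the Let7e mouse id with 2 of the 7 cells, which measured 385.2 and 1015 CPM. Leaving out the 7 cells, Eif3k was 0.67 (edgeR p = 0.0235). Eef1d was then 0.39 (edgeR p = 0.0924), Eif4g3 0.97 (edgeR p = 0.081) and Eif2d -0.49 (edgeR p = 0.0585). Eif4b, at 0.46 (edgeR p = 0.0115), came under 0.05. Every Let7e mouse id was above every Let7d mouse id for 6 members (Eef1d, Eif3b, Eif3k, Eif4g3, Pabpc1, Pabpc4; 3.12% of all genes) and below for 0 (2.95% of all genes). Pabpc1 measured 616.5 to 779 CPM in Let7e and 480 to 556.9 in Let7d.

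Tested over all 4 labels at once, no member passed by edgeR (0% of all genes), and 6 of 55 (10.9%) had an unadjusted p under 0.05, against 5.59% of all genes. They were Eif2d, Eif4b, Pabpc4, Pabpc1, Eif4g2 and Eif3k. Eif2d had rank 3 of 7886 (edgeR p = 0.000834, not past the threshold after adjustment). DESeq2's likelihood ratio test called Eif2d alone among the members (adjusted p = 0.0278) and 15 genes in all. The adjusted p of Eif2d ran from 0.0278 to 1 over the alternatives, and DESeq2 was the one that called it. The mean of Eif2d was highest in Let7d, followed by Let7e and NC, whose ranges overlapped, and lowest in mi699a-5p.

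Of 59 other genes of the translation pathway (eIF1 factors, eIF4E and poly(A)-binding partners, mTOR pathway genes and others, chosen with earlier results of these data known) 48 were in the table. None passed by edgeR in any comparison. At an unadjusted p under 0.05, 1 was higher and 3 lower in Let7d, 1 was higher in Let7e, 2 were higher and 1 lower in mi699a-5p, and 3 were higher and 1 lower in Let7e against Let7d. The shares of all genes under this p, in either direction, were the 4.69%, 4.02%, 5.5% and 5.39% given above. In Let7d against NC the list held Eif2s3x, the X-linked gamma subunit of eIF2 (1.15 ± 0.32, edgeR adjusted p = 0.886), and Tpt1, a growth-related gene whose mRNA is known for translational control (-0.84 ± 0.25, edgeR adjusted p = 0.886). Eif2s3x was also higher in mi699a-5p (0.87, edgeR p = 0.0105, adjusted p = 0.858). Y-linked reads were 52.4 and 68.3 CPM in 2 Let7d mouse ids and 254.8 in the other, 21.4 and 45.8 in 2 mi699a-5p mouse ids, and 132.9 to 341.0 in NC, and their part in the Eif2s3x values was not tested. Tpt1 was higher in Let7e than in Let7d by 0.81 ± 0.24 (edgeR adjusted p = 0.868).

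Between blastomeres of the same mouse id, most translation factor mRNAs had a lower CV than the line for genes of their level. The CV (coefficient of variation, the SD of CPM over cells divided by the mean) was pooled over the 13 mouse ids with at least 3 cells, which held 79 cells. The members' median CV was 0.36, against 0.759 over all genes. Set against a smooth line of CV on level over all genes, 42 of 55 members (76.4%) lay below the line, where 50.1% of all genes did, and the median distance was -0.19 on the log2 scale. Computed within 1 mouse id at a time, the members' median distance was below 0 in 12 of 13, from -0.25 to 0.01. Without the 7 cells it was -0.15, with 44 of 55 below the line. No test was made, since the genes were chosen with earlier results known.

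**Figure D4:**
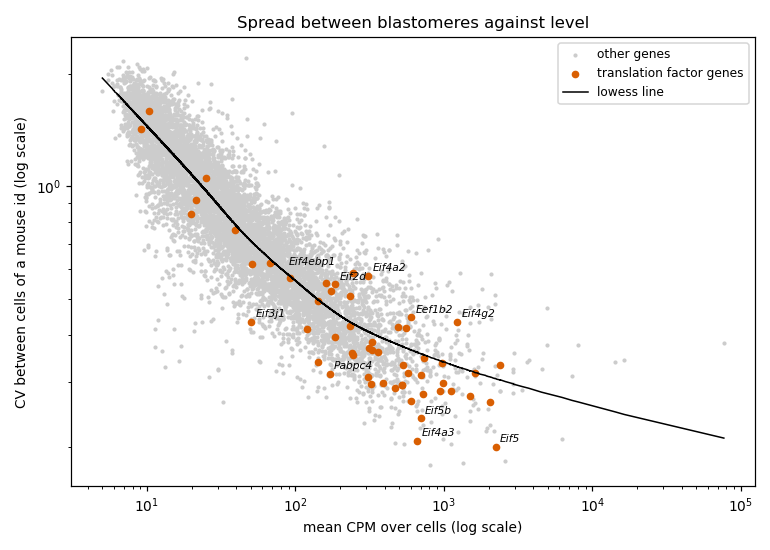
CV between cells of a mouse id (vertical axis, log scale) against the mean CPM over cells (horizontal axis, log scale) for 7886 genes, with the 55 translation factor genes in orange and the lowess line in black. Most orange points lie under the line, and the 5 furthest below and the 5 furthest above are named.

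The members furthest below the line were Eif4a3, the helicase of the exon junction complex (CV 0.208, distance -0.79), Eif3j1 (0.434, -0.72), Eif5 (0.201, -0.61), Pabpc4 (0.315, -0.58) and Eif5b (0.239, -0.58). Eif4a3 ran from 230.7 to 957.4 CPM over the 81 cells, with a median of 638.4. The members furthest above the line were Eif4a2 (CV 0.575, distance 0.49), Eif4ebp1 (0.586, 0.45), Eif4g2 (0.434, 0.40), Eef1b2 (0.446, 0.29) and Eif2d (0.546, 0.25). Eif4a2 ran from 13.68 to 883.7 CPM with a median of 278.1, while its paralog Eif4a1 had a CV of 0.284. Of the exons of Eif4a2 13.3% overlap other annotated genes, small nucleolar RNAs among them. Several of these distances rested on the 7 cells. Below the line, Eif5 moved to -0.19 without them, and the 5 lowest became Eif3j1 (-0.87), Eef1akmt4 (-0.86), Eif4a3 (-0.69), Eif4e2 (-0.68) and Eif2s1 (-0.68). Above it, Eif4ebp1 lay at 0.03, Eef1b2 at 0.11, and Eif3k moved from 0.23 to -0.34, whereas Eif4g2 lay at 0.57, Eif4a2 at 0.52 and Eif2d at 0.30. By role, 11 of 13 eIF3 genes and all 4 genes of subunit joining, eIF5A and eIF6 lay below the line, and 3 of 6 elongation genes did.

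Most of the spread between cells was not between labels. For the median member 6.03% of the sum of squares of log2 CPM lay between labels, 15.8% between mouse ids of a label and 74.6% between cells of a mouse id. All genes had medians of 4.67%, 14.9% and 79.4%, and equal variance alone gives 3.75%, 12.5% and 83.8% by degrees of freedom. The label share was largest for Eif2d at 32.5%, Pabpc1 at 26.1% and Pabpc4 at 25.2%. Eif5b had the largest share between mouse ids, 34.0%.

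Within mouse ids the members formed blocks whose correlations differed in sign. Correlations are Pearson's r of log2 CPM after each mouse id's mean was removed, over 79 cells. They are given without a p, since cells of a mouse id share their source and every CPM shares its library's total. Pairs of members had a median r of 0.07, pairs of the same role 0.16, and pairs of all genes between the lowest and highest member level 0.02. This background was not matched in level: the members' median was 329 CPM, against 40.9 CPM over all genes. The part of level in these differences was not tested. The highest pairs were Eef1a1 with Eif3l (0.82), Eif4a1 with Eif3e (0.78), Eef2 with Eif3a (0.78) and Eef1a1 with Eef2 (0.75). With Eef2, 20 of the 54 other members had an r over 0.3 and 9 under -0.3. Among other genes with a mean of at least 20 reads a cell the shares were 19.4% over and 8.49% under, against 37.0% and 16.7% of members. That floor kept 7759 genes, which were not matched to the members in level either, and the part of level was not tested. Highest were Eif3a (0.78), Eef1a1 (0.75), Eif4b (0.71), Eif4a2 (0.70), Eif4h (0.69) and Eif4g2 (0.66). Lowest were Pabpc1 (-0.56), Eif3k (-0.48), Eif4ebp1 (-0.46), Eef1b2 (-0.44), Eef1d (-0.40) and Eif5b (-0.40). Of the exchange subunits that recharge eEF1A, Eef1b2 and Eef1d thus had negative values, and Eef1g had 0.32. Eef1d was 0.30 within Let7d and -0.11 without the 7 cells.

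These blocks moved with ribosomal protein genes and with the exon length of the genes that a cell's reads fell on. The 82 ribosomal protein genes had a median r of -0.63 with Eef2, and 69 of them lay under -0.3. Their summed share had an r of -0.67 with Eef2, -0.75 with Eif3a, 0.64 with Pabpc1, 0.74 with Eif3k and 0.75 with Eef1b2. The geometric mean exon length of the gene that a read fell on was taken without members, ribosomal RNA and mitochondrial genes. It had an r of 0.74 with Eef2, 0.80 with Eif3a, 0.83 with Eif4g2, -0.76 with Eif3k and -0.72 with Eef1b2. Ribosomal protein genes stayed in this mean, so it and their share are not independent measures. Over the 54 other members, r with Eef2 had a correlation of 0.23 with a gene's own log2 exon length, and over 7812 genes of 0.32. The depth of the cell had an r of 0.15 with Eef2. Outside the members, Eef2 was closest to Kif20a (0.86), a kinesin of cell division. The part of length, of ribosomal protein mRNA or of the cell cycle in these blocks was not tested.

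The 7 cells and the mi699a-5p group carried much of this pattern. Eef2 measured 246.8 to 1947 CPM in the 7 cells, with a median of 849.6, against a median of 2565 and a lowest value of 836.2 in the other 74. In the 3 mi699a-5p cells among them it was 246.8, 415.4 and 439.7 CPM. Eif4b had a median of 133.8 CPM in the 7 cells against 318.5, Eif4g2 231.9 against 1312, and Kif20a 8.08 against 310.0. Pabpc1 ran the other way, with a median of 927 CPM against 518.3, as did Eef1b2 with 1080 against 511.6 and Eif4ebp1 with 378.7 against 209.9. Eef1a1 was low in most of the 7, with a median of 655.1 against 1669, but the NC mouse id 3 cell had 2968 CPM, the highest of all 81 cells. These medians describe cells picked by their ribosomal protein share and carry no test.

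**Figure D5:**
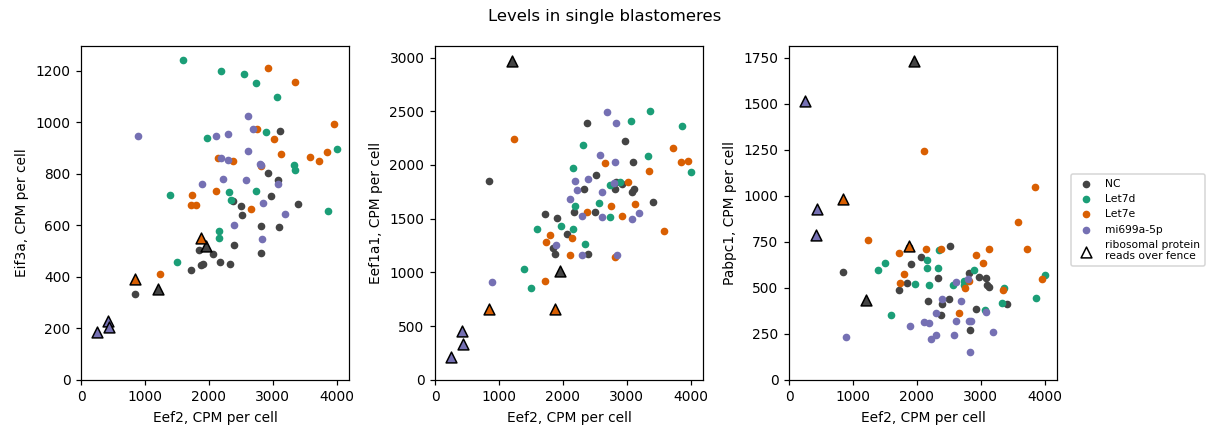
CPM per blastomere of Eif3a, Eef1a1 and Pabpc1 (vertical axes) against Eef2 (horizontal axis), coloured by injected material, with the 7 cells of high ribosomal protein share as triangles. The triangles lie low for Eef2 and Eif3a, and 3 mi699a-5p triangles lie lowest for Eef1a1.

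Without the 7 cells, 15 members had an r over 0.3 with Eef2 and 2 under -0.3, Eif4e2 and Pabpc1. Eef1a1 then had 0.60, Eif3a 0.56, Eif4b 0.53, Eif4a2 0.52 and Eif4h 0.52, while Eif3k went to -0.15 and Eef1b2 to -0.09. Without the mi699a-5p cells 8 members were over 0.3 and 7 under -0.3. The share of other genes was not computed for either subset, so these counts have no background beside them. Eif3a kept an r of 0.69 and Eif4h of 0.55, but Eef1a1 had 0.28 and Eif3l 0.16. Within single labels, Eef1a1 with Eef2 gave 0.96 for mi699a-5p, 0.66 for Let7d, 0.38 for Let7e and 0.07 for NC, and Eif3a gave 0.83, 0.21, 0.79 and 0.83 in the same order. Eif3a, Eif4b and Eif4g2, the members with the smallest p in Let7e against NC, were among the 6 members closest to Eef2. In that comparison Eef2 itself had a log2 fold change of 0.13. The rest of the 6 had -0.17 (Eef1a1), -0.01 (Eif4a2) and 0.21 (Eif4h). Between mouse ids the geometric mean exon length per read was 3853 to 4165 bases in Let7e and 3830 to 4235 in mi699a-5p. It was 3900 to 4022 in NC and 4049 to 4134 in Let7d, so Let7d lay above NC without overlap. The part of this difference in the levels of these genes was not tested.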

How the data were processed

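The deposited table holds raw read counts per gene and cell, made by the authors with STAR on GRCm38.p6 per the submitters' processing notes, without versions. It is labelled as taken after a CPM filter. All genes therefore means the genes that passed this filter, and a gene without a row may have fallen below it. The counting program is not given in the sources used here. The deposited RPKM table was not used, since its values imply no constant gene length. Cells of a mouse id were added up, and the sums entered the two-sided quasi-likelihood F test of edgeR 4.0.16 (R 4.3.3; TMM scaling; filterByExpr removed 0 genes) in 1 fit of all 4 labels, with 10 residual degrees of freedom. CPM were scaled by TMM factors for mouse ids and by library totals for cells. Lengths, untranslated regions and symbols came from GENCODE M21 (GRCm38), RefSeq gave microRNA and start sequences, and log2 CPM per cell used a pseudocount of 1. Named genes were members with an unadjusted p under 0.05 in a comparison, the highest and lowest of each role, the 5 furthest on each side of the CV line, and paralog sets. The members, roles and lists were chosen with earlier results of these data known. The tests were tried on simulated data. Alternatives used DESeq2 1.42.0 and limma 3.58.1. The 7 cells lie over the upper quartile plus 1.5 interquartile ranges of the ribosomal protein share, a choice made after the correlations with Eef2 had been seen. Reads carry no molecular identifiers, so they are not independent molecules.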

Additional observations from a re-analysis of the deposited data

Results flagged for a closer look

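In groups of 4 mouse ids, 8 of 112 sets of values (7.14%) had a sample whose gap to its nearest neighbour, divided by the range, was over the 95% critical value of Dixon's test, and chance flags about 1 in 20 such groups. In Let7e, mouse id 1 had the lowest Eif3l, at 493.6 CPM against 833.3 to 863.2 in the others (ratio 0.919), and this mouse id holds 2 of the 7 cells of high ribosomal protein share. Also in Let7e, mouse id 4 had the highest Eef1d at 673.9 CPM against 521.3 to 537.1 (0.897). Mouse id 3, a sum of 2 cells, had the lowest Eif6 at 651.6 CPM against 953.2 to 999.5 (0.867). Let7e mouse id 2 had the highest Eef1b2 at 625.6 CPM against 537.6 to 552.4 (0.832). In mi699a-5p, mouse id 3 had the lowest Eif4g1 at 480.8 CPM against 579 to 588.9 (0.908). Mouse id 4 had the lowest Eif2b4 at 107.6 CPM against 166.6 to 173.9 (0.89). Mouse id 1 had the lowest Eif2b3 at 301.5 CPM against 343 to 348.9 (0.877), and mouse id 2 the highest Eif5 at 2753 CPM against 1981 to 2099 (0.847). The mouse id that stood apart differed from gene to gene.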

How the results depend on the processing

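The count of members called stayed at 0 in every pairwise comparison and alternative, and in the test over 4 labels it was 1 with DESeq2 and 0 otherwise. For the 14 pairwise differences of members with an unadjusted p under 0.05, all 248 alternative values kept their direction and none passed the threshold, with a lowest adjusted p of 0.189. These differences were picked by p in the same data, and the alternatives re-use the same cells. A kept direction is therefore no independent support. Over all genes, Let7d against NC gave 1 call, 3 with DESeq2, and 0 with only the 2 labels compared, with limma on mean log2 CPM and with Y-linked reads as covariate, and 0 to 1 leaving out each mouse id (0 without NC 1, NC 3, Let7d 1 or Let7d 3). DESeq2 called 6 genes for mi699a-5p and 8 for Let7e against Let7d. Leaving out a mouse id gave 0 to 2 (2 without mi699a-5p 3) and 0 to 1 (1 without Let7d 2). Same-numbered mouse ids did not deviate together (median r = 0.03 over 19 pairs, 0.01 over other pairs), and with the mouse number as a replicate block Let7d against NC gave 0 calls and no other call changed. The members' median log2 fold change in limma was 0.038 for Let7d (0.111 over all genes) and 0.009 for Let7e against Let7d. Without ribosomal RNA and mitochondrial rows in the totals, members took 3.34% of reads in place of 2.9%, with 3.46% for Let7e, 3.41% for NC, 3.28% for Let7d and 3.2% for mi699a-5p. Lengths by the longest coding transcript gave a median of 128.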
